A study of Saccharomyces cerevisiae with 9 samples.

Results

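The genes described here are the outermost open reading frames (ORFs) of the chromosome arms of budding yeast, outside the large gene families that crowd those ends. They were chosen by systematic name. In such a name the letter gives the chromosome, L or R gives the arm, and the number grows from the centromere towards the end. On each of the 32 nuclear arms the ORFs with the 5 highest numbers were taken, which gave 160. Of these, 29 were dropped because the array's gene name placed them in the COS, PAU, YRF1, FLO, THI, PHO, IMD, ARN, FRE, SNO, SNZ or HXT families, and 131 of the 6256 genes on the arrays remained. An arm holds 2 to 5 of them.

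Yeast chromosome ends carry repeated elements, called X and Y′, and are packed into silent chromatin by the Sir proteins Sir2, Sir3 and Sir4, which bind nucleosomes with deacetylated histone tails. Ubiquitin on 1 lysine near the end of histone H2B, K123, is attached by Rad6 and Bre1 and removed by Ubp8, a subunit of the SAGA complex. It is needed for methylation of histone H3 by Set1 and Dot1, and Dot1 methylation limits where the Sir proteins bind. Genes near the ends are often expressed at a low level and many have close relatives on other arms.

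Total RNA of 5 strains was compared on 9 Agilent arrays, each with a mutant in one dye and a reference strain in the other. The reference for 6 arrays was BY4742, labelled wild type. Against it stood CY1272, which carries Htb1_K123R, an H2B with arginine in place of that lysine, and lacks HTB2, the other H2B gene (htb2_delta0). Next came BY10809, which lacks UBP8 (ubp8_delta0), and CY1383, which combines Htb1_K123R, htb2_delta0 and ubp8_delta0. These are called K123R, ubp8 and the double mutant. Each had 2 arrays against wild type, with the mutant in Cy5 on array 1 and in Cy3 on array 2. K123R was also compared on 3 arrays with BY13026, which lacks HTB2 alone, so that both strains of this comparison share the deletion. In that comparison K123R was in Cy5 on array 2 only. Each genotype is 1 strain. The design text calls the arrays biological replicates, and growth conditions are not given in the sources used here.

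Log2 ratios are mutant over reference, with the standard error from limma, and a gene passed where its adjusted p, over all genes tested, was under 0.05. The deleted genes read low where the source labels say so. HTB2 was between −3.16 and −3.87 on the 4 arrays with K123R or the double mutant on wild type. UBP8 was between −2.08 and −2.54 on the 4 that carry a strain without it. The title of K123R array 1 against wild type names htb1_delta0 where its source label names htb2_delta0. The source label was followed, and HTB2 read −3.68 on that array. The HTB1 message is not removed by the substitution and does not check the genotype. It read 0.14 ± 0.18 in K123R against wild type but −0.80 ± 0.08 (adjusted p = 0.00670) against the htb2 deletion strain. HTB2, which both strains of that comparison lack by their labels, read −0.45 ± 0.09 there (adjusted p = 0.0217). The part of the lower HTB1 signal there cannot be told apart from that of the lysine. HIS3 signal was higher in K123R against both references (3.17 ± 0.37 and 3.63 ± 0.08) and in the double mutant (2.86 ± 0.37). LEU2 read 3.70 ± 0.20 in K123R against wild type but −0.21 ± 0.08 in K123R against the htb2 deletion strain and −0.05 ± 0.20 in the double mutant. The K123R RNA of the 2 comparisons thus differed in LEU2 signal. HIS3 moved with the substitution in every comparison, and its part cannot be told apart from that of the lysine. LEU2 moved with the substitution only in K123R against wild type, and its part cannot be told apart there either. Spots marked as outliers by the scanner software made up 18.8% to 19.0% of each array that carried the htb2 deletion strain and 0.76% to 3.62% of the others.

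Although the rule was meant to leave single genes, many of the 131 have relatives. The current RefSeq names, on assembly R64, place 15 of them in a dropped family after all. These are 13 PAU genes, YRF1-8 (YOR396W) and SNO4. Other members come in named sets of relatives, among them ERR1, ERR2 and ERR3, HSP32, HSP33 and SNO4, MAL12 and MAL32, GEX1 and GEX2, VBA3 and VBA5, MPH2 and MPH3, SOR1 and SOR2, VTH1 and VTH2, and AAD3 and AAD15. MAN2, DDI2 and IMA4 have near-identical copies further inward, and the ORFs of the Y′ elements recur from end to end. A probe for one copy may also have measured another, and values within a set are not independent. A further 40 members have a RefSeq name of their own, 47 are RefSeq genes without a name, and 29 have no entry there. Each member is read by 1 probe, with 1 spot for 45 members and 2 spots for 86. All 131 could be tested against wild type and 125 against the htb2 deletion strain.

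The members were dim. Their median signal on the arrays against wild type, as log2 over both colours, was 9.20, which lies at the 17.5th percentile of all probes, against a median of 11.1 for all genes. The ORFs ranked 6 to 10 from the ends, with the same families dropped, had a median of 9.59, at the 21.3rd percentile. The 29 family members that were dropped had 12.1, at the 71.7th percentile. Signal depends on the probe as well as on the transcript, so single probes are not ranked against each other as transcript levels. The 29 members without a RefSeq entry had a median of 8.10 and the 13 PAU genes 10.7.

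At rank 1, the very ends, 23 members had a median signal of 10.8, above the 8.10 at rank 4, but they split into bright and dim probes. A group of 10 members, 9 of them at rank 1, had signals from 14.2 to 15.4, while the next member, HXK1, had 13.6. The 5 brightest were YLL067C, YBL113C, YRF1-8, YHR219W and YLL066C. The scanner files annotate YPR204W, another of the 10, as a DNA helicase, and YRF1-8 belongs to the Y′ helicase family. The 5 dimmest were YGL260W, YFR057W, YIR040C, YMR324C and YCL076W, of which YFR057W and YCL076W are at rank 1. Of the 131 members, 128 were well above background in both colours on all 6 arrays against wild type, and none was saturated on them.

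The first comparison, K123R with wild type, concerns the response to an H2B without the ubiquitin-bearing lysine, here together with the loss of HTB2. In it 19 members rose and 9 fell, 14.5% and 6.87% of the 131, while 11.0% of all 6247 genes tested rose and 10.1% fell. The median of the members was 0.04 against −0.002 for all genes, but −0.04 on array 1 and 0.14 on array 2, so that its sign rests on array 2. In RNA of whole cultures a change in every cell and a change in some cells cannot be told apart. The largest increases were in 2 dim, unnamed ORFs near different ends, YGL262W and YFR057W, and in the enolase-related genes ERR1 and ERR2. Decreases were smaller: FEX2, BDS1 and ARR2 fell most. Calls rest on both arrays of the pair. Leaving out either K123R array cut the calls among all genes as well as among the members. The lone array was there assumed to vary like the others, so that no count is given. When an array of another mutant was left out, 19 to 22 members passed, beside 13.2% to 14.2% of all genes. With the slide as a block, 70 members and 39.3% of all genes passed.

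**Figure D1:**
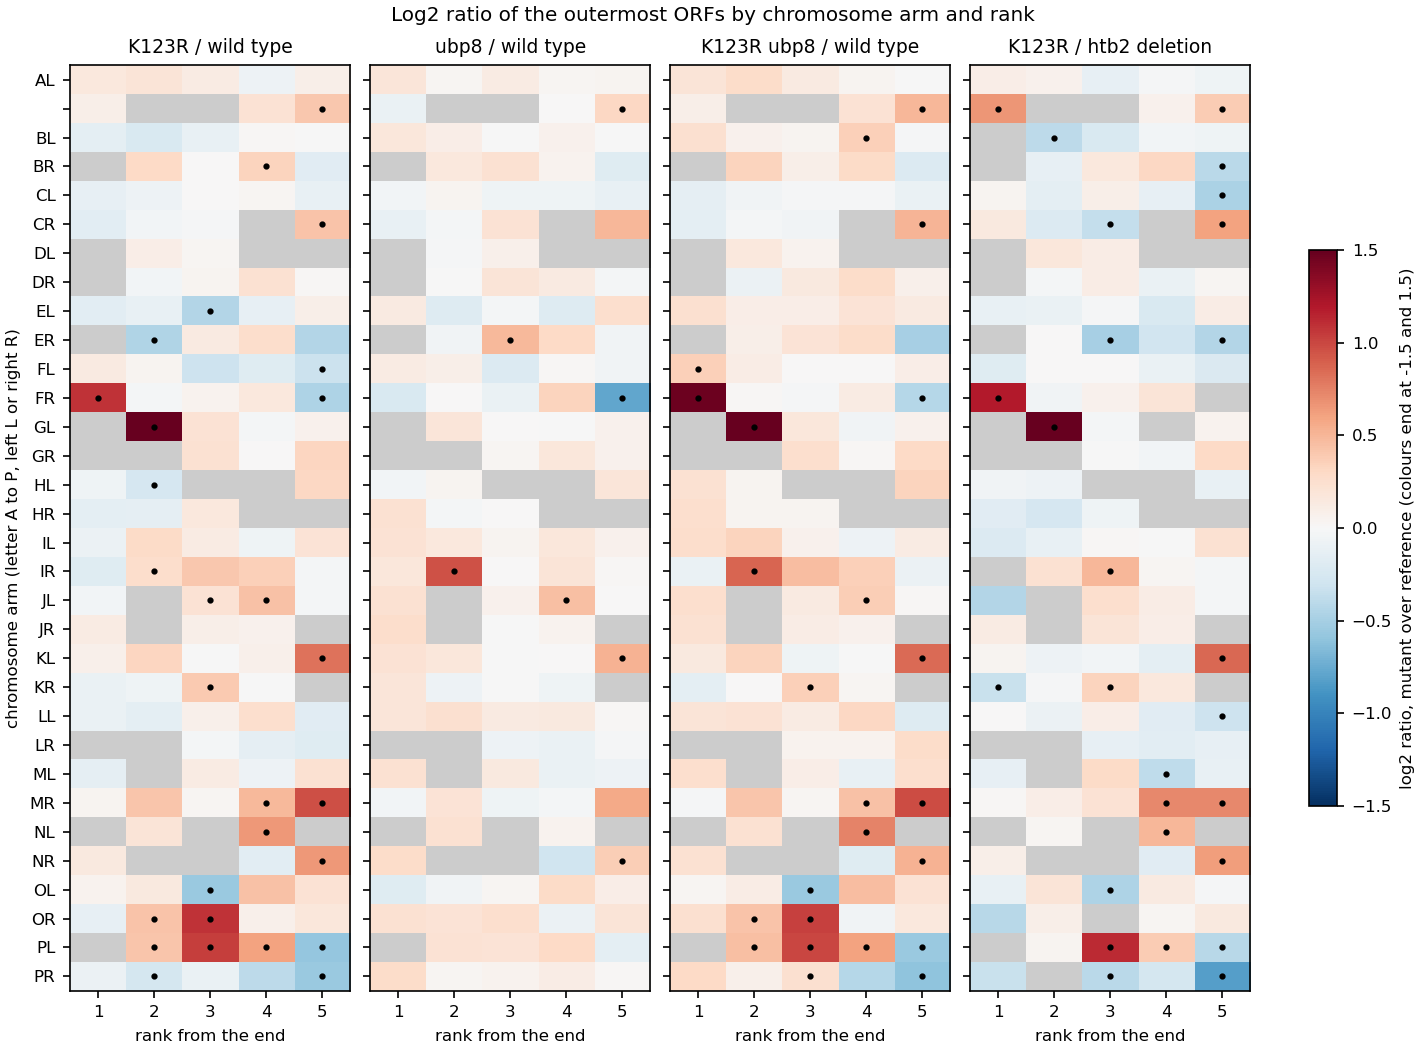
Log2 ratio (colour) of each outermost ORF by chromosome arm (rows, chromosome letter A to P with left or right arm) and rank from the end (columns, 1 is outermost) in the 4 direct comparisons; black points mark members that passed at an adjusted p under 0.05, and grey cells are dropped family members or ORFs not tested; 1 row carries no label. The dark red cells at FR rank 1, GL rank 2, OR rank 3 and PL rank 3 are YFR057W, YGL262W, ERR1 and ERR2, and 8 of the 32 arms have no black point in any panel.

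YGL262W, ranked 2 on arm GL, read 1.70 and 1.45 on the 2 arrays of K123R against wild type and 1.72 and 1.66 in the double mutant. It read 0.13 and 0.22 in ubp8, and 1.94, 1.77 and 1.92 with the htb2 deletion strain as reference. All 7 arrays that carry K123R or the double mutant were thus above both ubp8 arrays. YGL262W was named for its high ratios there, so that this separation is no further evidence. The fitted changes were 1.57 ± 0.08 in K123R (adjusted p = 0.00223), 1.69 ± 0.08 in the double mutant (adjusted p = 0.00266) and 1.85 ± 0.08 against the htb2 deletion strain (adjusted p = 5.9e-04). In ubp8 it was 0.18 ± 0.08 (adjusted p = 0.254). Wild type was well above background on 1 of 2 arrays in the K123R and in the double mutant comparison. The htb2 deletion strain was not on any of 3, so that the ratio there is a bound, at least 3.60-fold higher in K123R. The adjusted p there belongs to the measured ratio, and YGL262W could be tested there only through the K123R signal.

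YFR057W, the outermost ORF of arm FR, read 1.06 and 1.11 in K123R and 1.41 and 1.53 in the double mutant. In ubp8 its arrays gave −0.44 and −0.02, and against the htb2 deletion strain 1.18, 1.16 and 1.25. The 2 double mutant arrays lay above the 2 K123R arrays against wild type, without overlap. Reference RNA was not well above background on any array of these 3 comparisons with K123R. The increase is therefore a bound, with the dim side set to the lowest signal well above background on each array or to its own value where that is higher. YFR057W was at least 1.78-fold higher in K123R than in wild type and at least 2.48-fold higher in the double mutant. It was at least 2.11-fold higher in K123R than in the htb2 deletion strain. The adjusted p-values by limma were 0.00478, 0.00396 and 0.00276 in the same order. They belong to the measured ratios and do not test these bounds. Against the htb2 deletion strain YFR057W could be tested only through the K123R signal. Against wild type that was mostly through K123R and the double mutant. On the log2 scale the measured means in K123R against wild type were 7.03 for K123R and 5.95 for wild type.

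The 3 ERR genes, whose products resemble the glycolytic enzyme enolase, all rose in K123R and in the double mutant. ERR2 read 1.15 and 0.92 on the K123R arrays, 1.09 and 0.91 in the double mutant, 0.30 and 0.10 in ubp8 and 1.16, 1.16 and 1.01 against the htb2 deletion strain. ERR1 read 1.23 and 0.94 in K123R and 1.19 and 0.86 in the double mutant, and had a value on 1 array, 1.20, against the htb2 deletion strain, where it was not tested. ERR3 was weaker at 0.49 ± 0.09 in K123R (adjusted p = 0.0205) and 0.44 ± 0.09 in the double mutant (adjusted p = 0.0279). It rose by 0.72 ± 0.10 against the htb2 deletion strain (adjusted p = 0.00960). ERR1 and ERR2 had similar values on each array against wild type. Whether their probes tell the copies apart was not tested.

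HSP32, HSP33 and SNO4 are relatives of the chaperone gene HSP31. SNO4 read 1.13 and 0.81 in K123R, 1.06 and 0.90 in the double mutant and 0.75, 0.83 and 0.47 against the htb2 deletion strain, and passed in all 3. HSP32 passed in the same 3 with 0.60 ± 0.05, 0.61 ± 0.05 and 0.38 ± 0.10. HSP33 read 0.17 ± 0.09, 0.15 ± 0.09 and 0.15 ± 0.08 in them and passed in none. In ubp8, SNO4 was 0.57 ± 0.11 (adjusted p = 0.0603) and HSP32 0.29 ± 0.05 (adjusted p = 0.0504).

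The 13 PAU genes encode cell wall proteins of the seripauperin family, which are known to be induced when oxygen is scarce. PAU21 and PAU22 passed in K123R against wild type (0.42 ± 0.08 and 0.41 ± 0.09) and in the double mutant (0.43 ± 0.08 and 0.45 ± 0.09). None of the 13 passed in ubp8 or against the htb2 deletion strain. Their median was 0.19 on K123R array 1 and 0.45 on array 2, 0.25 and 0.44 in the double mutant, 0.01 and 0.33 in ubp8, and 0.14, −0.22 and 0.08 against the htb2 deletion strain. In each of the 4 comparisons the lowest median was on the array with the mutant in Cy5, so the PAU ratios differed between the dye orientations. Against the htb2 deletion strain, 1 of 13 was above 0 on the array with K123R in Cy5, and 12 and 9 on the others.

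**Figure D2:**
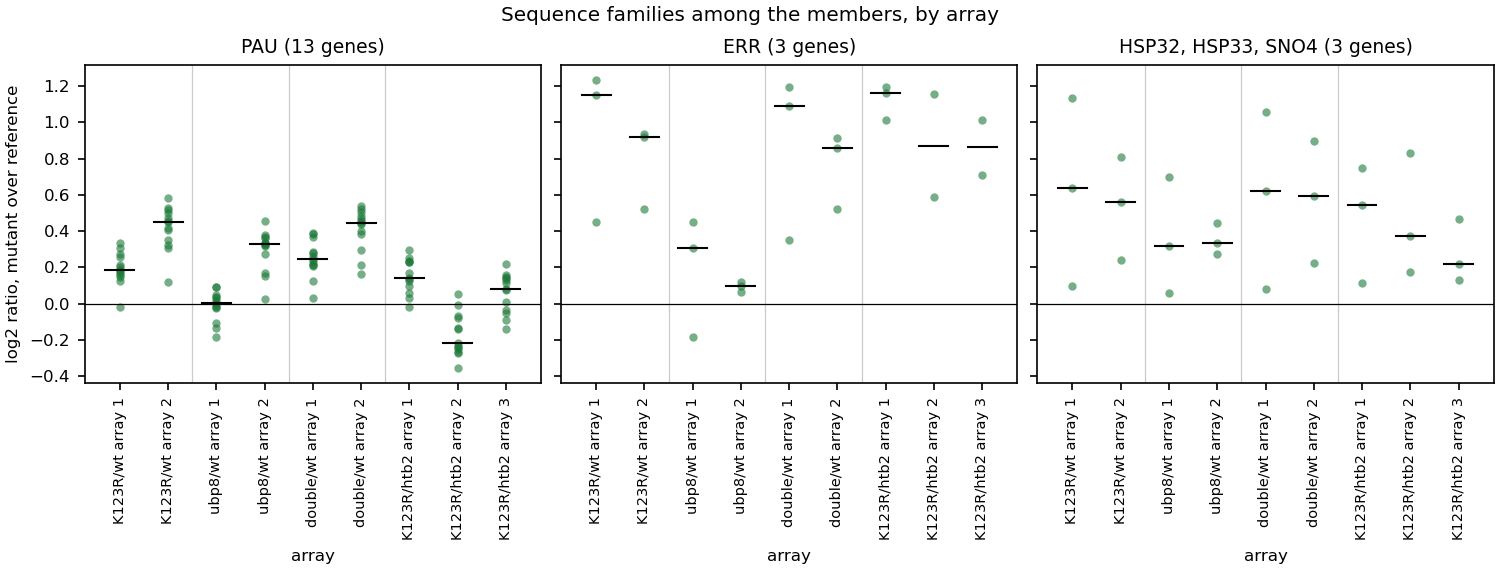
Log2 ratio, mutant over reference, on each of the 9 arrays (horizontal axis) for the 13 PAU genes, the 3 ERR genes and HSP32, HSP33 and SNO4; each point is a gene, black bars are medians over genes with a value, and grey lines separate the 4 comparisons. PAU medians lie between 0.19 and 0.45 in K123R against wild type and between −0.22 and 0.14 against the htb2 deletion strain, and the ERR medians in K123R and in the double mutant lie above those in ubp8.

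Several metabolic genes of the ends rose in more than one mutant. MCH2, a relative of monocarboxylate transporters, read 0.87 and 0.76 in K123R, 0.66 and 0.37 in ubp8, 0.91 and 0.79 in the double mutant and 0.70, 0.94 and 0.88 against the htb2 deletion strain. MAN2, a mannitol dehydrogenase gene, read 0.72 and 0.59 in K123R, 0.42 and 0.33 in ubp8, 0.56 and 0.48 in the double mutant and 0.60, 0.63 and 0.65 against the htb2 deletion strain. Both passed in all 4 direct comparisons, as did YAR069C, an ORF with no RefSeq entry, at 0.41 ± 0.05, 0.31 ± 0.05, 0.49 ± 0.05 and 0.38 ± 0.08 in that order. The ubp8 calls of these 3 were each lost in 2 of 9 other settings and in all 6 refits that left out an array. The 3 comparisons with wild type share that strain as reference.

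DDI2, which encodes a cyanamide hydratase, rose by 0.65 ± 0.08 in K123R, 0.74 ± 0.08 in the double mutant and 0.50 ± 0.08 against the htb2 deletion strain. In ubp8 it was 0.05 ± 0.08 (adjusted p = 0.801). IMA4, an isomaltase gene, passed in the 3 comparisons with wild type (0.44 ± 0.06 in K123R, 0.45 ± 0.06 in ubp8 and 0.37 ± 0.06 in the double mutant) and read 0.11 ± 0.11 against the htb2 deletion strain. YKR104W passed in K123R (0.40 ± 0.06), in the double mutant (0.36 ± 0.06) and against the htb2 deletion strain (0.34 ± 0.08). YCR102C passed in the same 3, at 0.43 ± 0.11, 0.52 ± 0.11 and 0.60 ± 0.09. The smallest increases that passed in K123R against wild type were VTH2, a relative of a vacuolar sorting receptor (0.22 ± 0.05), YIR043C (0.27 ± 0.05) and the maltase gene MAL32 (0.33 ± 0.08, adjusted p = 0.0473).

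**Figure D3:**
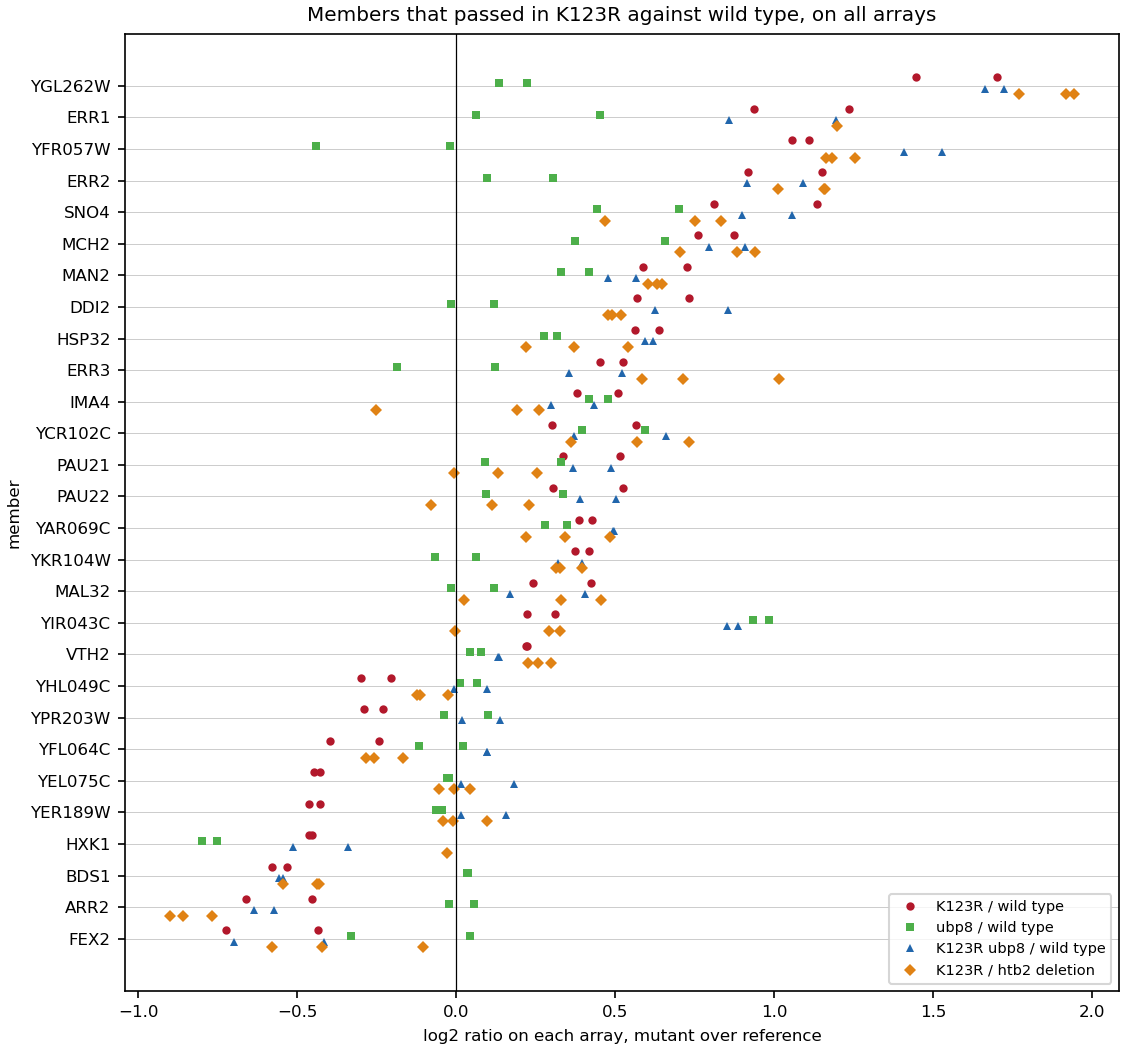
Log2 ratio, mutant over reference (horizontal axis), on each of the 9 arrays for the 28 members (rows) that passed in K123R against wild type; circles are K123R, squares ubp8 and triangles the double mutant, each against wild type, and diamonds K123R against the htb2 deletion strain. YGL262W reads 1.45 to 1.94 in all comparisons with K123R or the double mutant and 0.13 and 0.22 in ubp8, and YER189W and YEL075C read −0.46 to −0.43 in K123R against wild type and −0.06 to 0.18 elsewhere.

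Of the 9 decreases, 3 recurred against the other reference strain. ARR2, the arsenate reductase gene, read −0.66 and −0.45 in K123R, −0.64 and −0.57 in the double mutant, −0.02 and 0.05 in ubp8 and −0.90, −0.77 and −0.86 against the htb2 deletion strain. BDS1, a sulfatase gene, read −0.53 and −0.58 in K123R, −0.55 and −0.56 in the double mutant and −0.44, −0.43 and −0.55 against the htb2 deletion strain, and 0.04 and 0.03 in ubp8. FEX2, a fluoride exporter gene, was at −0.58 ± 0.13 (adjusted p = 0.0323) in K123R and −0.56 ± 0.13 in the double mutant, and fell by 0.42 ± 0.10 against the htb2 deletion strain. ARR2 and BDS1 were named because they passed, so that the gap between their ubp8 arrays and the others is no further evidence. HXK1, a hexokinase gene repressed by glucose, fell in all 3 comparisons with wild type, to −0.46 ± 0.06 in K123R, −0.78 ± 0.06 in ubp8 and −0.43 ± 0.06 in the double mutant. It had a value on 1 array against the htb2 deletion strain and was not tested there.

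The other 5 decreases in K123R against wild type were of RefSeq genes without a name. YER189W read −0.46 and −0.43 and YEL075C −0.45 and −0.43. YFL064C was at −0.32 ± 0.06, YPR203W at −0.26 ± 0.06 and YHL049C at −0.25 ± 0.06. None of the 5 passed in ubp8 or in the double mutant. Against the htb2 deletion strain YER189W read −0.01, −0.04 and 0.10 and YEL075C −0.01, −0.05 and 0.04. YPR203W had no value there, and the other 2 did not pass.

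The comparison of K123R with the htb2 deletion strain concerns the lysine with HTB2 absent from both sides by the labels. HTB1 signal was lower in K123R there, as given above. Of 125 members tested, 14 rose and 13 fell, while 14.7% of all 5861 genes tested rose and 16.0% fell. The members' shares, 11.2% and 10.4%, were below both. Their median was −0.01 against −0.02 for all genes, and 0.10, −0.05 and 0.04 on the 3 arrays, where the fitted value has a dye term. Of the 19 members that rose in K123R against wild type, 12 (63.2%) also rose here, which is 85.7% of the 14. Of the 9 that fell there, 3 (33.3%) also fell here, 23.1% of the 13, and 2 of the 9 were not tested here. None passed in opposite directions. Over all genes, 56.4% of those that rose against wild type also rose here (44.7% of those that rose here), and 57.2% of those that fell also fell (38.6%). Both comparisons use a strain labelled K123R, whose RNA differed in LEU2 as given above. Without array 1, 9 members and 8.58% of all genes passed, and without array 3 these were 16 and 16.6%. Without array 2 they were 36 and 36.6%. Each refit used the mean of the remaining pair. Arrays 1 and 3 both have K123R in Cy3, so that dye effects cannot be told apart from changes in that pair.

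Most of the remaining calls here were of members that did not pass against wild type. YAR075W, which has no RefSeq entry, read 0.79, 0.57 and 0.73 there and 0.08 ± 0.08 in K123R against wild type. YIR042C rose by 0.50 ± 0.09 (adjusted p = 0.0141), and read 0.61 and 0.19 against wild type, where it did not pass. Among the 13 decreases were the maltose permease gene MAL31 (−0.40 ± 0.08), the alcohol dehydrogenase gene ADH7 (−0.36 ± 0.09), ERO1, which drives oxidative protein folding in the endoplasmic reticulum (−0.38 ± 0.08), the glutathione exchanger gene GEX2 (−0.34 ± 0.08) and the acetyltransferase gene AYT1 (−0.31 ± 0.08). YBL112C, YER188W, YER186C and YPR202W fell by 0.39 to 0.50, although YER188W rose in ubp8 and YPR202W in the double mutant.

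HMLALPHA2 lies in the silent mating-type cassette HML on arm CL, and its probe cannot be told apart from the copy at MAT in a strain of mating type alpha. It read −0.30, −0.40 and −0.80 against the htb2 deletion strain (−0.48 ± 0.12, adjusted p = 0.0349) and −0.11 ± 0.08 in K123R against wild type. Beside it, all 4 genes specific to mating type alpha that were looked at fell against the htb2 deletion strain, and 2 of 4 fell in K123R and in the double mutant against wild type. None of 7 genes specific to mating type a passed in any of the 4 comparisons by limma. At an unadjusted p under 0.05, there were 2 of them in ubp8, 1 in the double mutant and 0 in the rest.

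The ubp8 comparison asks which genes respond when ubiquitin is not removed by Ubp8. Here 6 members rose and 1 fell, 4.58% and 0.763% of 131, against 1.94% and 0.961% of all 6245 genes tested. Besides MCH2, MAN2, IMA4, YAR069C and the decrease in HXK1, already described, YIR043C and YER188W rose. YIR043C, which RefSeq lists as a pseudogene, read 0.93 and 0.98 in ubp8, 0.88 and 0.85 in the double mutant, 0.31 and 0.22 in K123R and 0.33, 0.29 and −0.00 against the htb2 deletion strain. Both strains that lack UBP8 were above both K123R arrays. The difference passed between ubp8 and K123R but not between the double mutant and K123R, as given below. YER188W read 0.49 on both ubp8 arrays (adjusted p = 0.0477). Leaving out an array of another mutant left 0 or 1 member, beside 0 to 0.128% of all genes. With the slide as a block 26 members and 15.0% of all genes passed.

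In the double mutant against wild type, 20 members rose and 4 fell, 15.3% and 3.05% of 131, against 9.86% and 10.02% of all 6245 genes tested. The median of the members was 0.12 and that of all genes 0.002. On the 2 arrays the members' median was 0.10 and 0.16, and the medians of the arms were above 0 on 30 of 32 arms. In K123R against wild type that was so on 20 arms, in ubp8 on 26, and on 15 where the htb2 deletion strain was the reference. No such count was made for other genes of the arms. Relatives such as the PAU genes, with a median of 0.34 in the double mutant, lie on several arms, so that arms are not independent. The members that rose in the double mutant but did not pass in K123R against wild type were YBL109W (0.36 ± 0.06), YFL068W (0.36 ± 0.06) and YPR202W (0.24 ± 0.05). Leaving out either array of the double mutant cut the calls among all genes as well as among the members. Without an array of another mutant 21 to 23 members passed, beside 11.9% to 13.2% of all genes. With the slide as a block, 55 members and 33.0% of all genes passed.

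The double mutant was then set against K123R, through wild type, to ask what the loss of UBP8 changes where H2B lacks the lysine. These 2 strains also differed in LEU2 on these arrays (3.70 ± 0.20 in K123R and −0.05 ± 0.20 in the double mutant). The part of LEU2 cannot be told apart from that of UBP8 here. No gene passed, so that 0.00% of 6245 genes were called and 0 of 131 members. Even UBP8 was not called, although it read −0.20 ± 0.12 in K123R and −2.36 ± 0.12 in the double mutant. Nor was LEU2. The lack of calls therefore does not show that the members were unchanged. At an unadjusted p under 0.05 by limma there were 43 genes in all, and 15 of them were members. That is 11.5% of the members and 0.689% of all genes, and 1 of 142 ORFs ranked 6 to 10 and 2 of the 28 dropped family members tested (7.14%), both higher, reached it. On both pairs of same-numbered arrays the double mutant was higher in 48.1% of the members, 46.4% of the dropped family members, 25.4% of the ORFs ranked 6 to 10 and 24.5% of all genes. All 15 were higher in the double mutant, against 26 of the 43. They lie on 9 arms, 13 are RefSeq genes without a name and 2 have no RefSeq entry. With the slide as a block 0 members passed. With the array number as a block, which is also a dye term, the call changed: 6 members of 14 genes in all passed.

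YIR043C came first with a difference of 0.60 ± 0.07 (unadjusted p = 0.000304, adjusted p = 0.634, and adjusted p = 0.0108 with that block). YER189W differed by 0.53 ± 0.08 and YEL075C by 0.54 ± 0.08. Both were at −0.43 to −0.46 on the K123R arrays and at 0.02 to 0.18 on those of the double mutant. Taken array by array, the difference in YER189W was 0.48 on the slide that holds array 1 of both mutants and 0.58 between the arrays numbered 2, which lie on different slides. In YEL075C these were 0.46 and 0.61. The 15 were picked by p on these same arrays, so that their separation is no further evidence. YER189W and YEL075C gave nearly equal values on each array. Whether they or others of the 15 share sequence was not tested, and the 15 are not counted as independent genes.

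**Figure D4:**
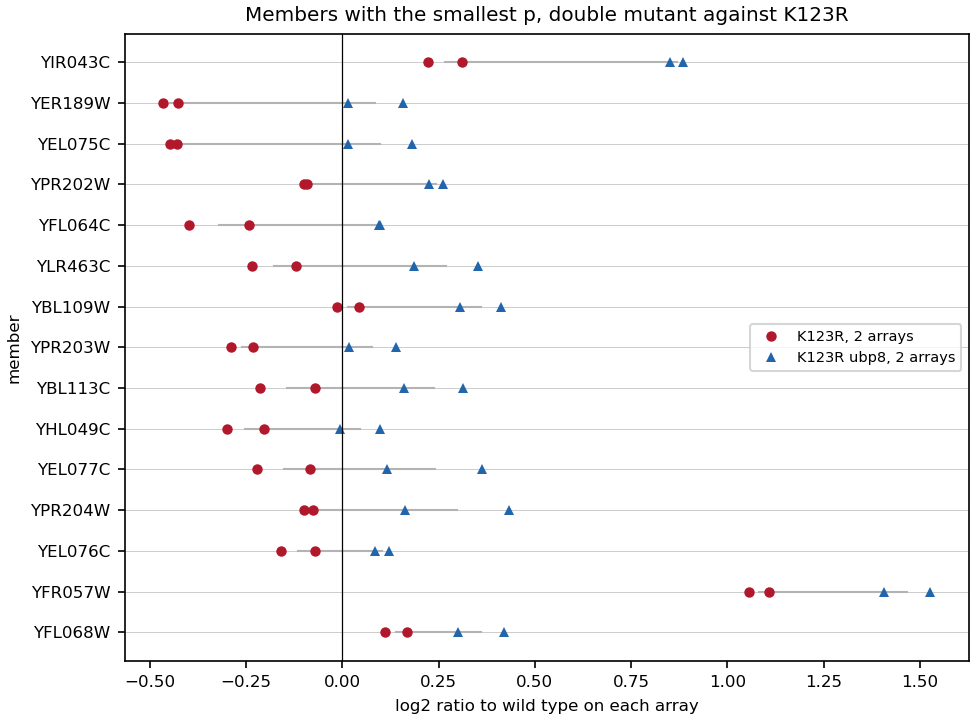
Log2 ratio to wild type (horizontal axis) on each of the 2 arrays of K123R (circles) and of the double mutant (triangles) for the 15 members (rows) with an unadjusted p under 0.05 between these mutants, ordered by p; grey lines join the means. The rows were picked by that p, so that a gap between the symbols follows from the choice; the difference is 0.60 in YIR043C, and YER189W and YEL075C lie at −0.46 to −0.43 in K123R.

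The log2 ratios of the 10 brightest members lay in narrow ranges in the comparisons with wild type. Several of the 10 may share sequence, as the ORFs of Y′ elements do. That was not tested, and the 10 are not counted as independent genes. Their log2 ratios were −0.15 to −0.04 in K123R against wild type, 0.13 to 0.27 in ubp8, 0.20 to 0.30 in the double mutant and −0.44 to 0.01 against the htb2 deletion strain, where 9 were tested. None passed in any of the 4. The difference between the double mutant and K123R was 0.29 to 0.40, and it was 0.32 to 0.54 in the 6 dropped YRF1 genes tested. The median of the 10 was 0.43 on array 1 and 0.03 on array 2 of ubp8, and 0.43 and 0.08 in the double mutant, while it was −0.09 and −0.15 in K123R against wild type. Against the htb2 deletion strain it was −0.24, 0.06 and −0.60 over the 9, 7 and 8 of them with a value.

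K123R was also compared with ubp8 through wild type. Here 10 members passed, 5 in each direction, and 8.25% of all 6245 genes did. YFR057W was among those higher in K123R, but was not well above background in ubp8 on either array, and no size is given for it. YGL262W, well above background in ubp8 on 1 of 2 arrays, was higher in K123R by 1.39 ± 0.11 (adjusted p = 0.00889) and ERR2 by 0.83 ± 0.13 (adjusted p = 0.0304). The difference was −0.69 ± 0.07 in YIR043C (adjusted p = 0.0138) and −0.59 ± 0.07 in BDS1 (adjusted p = 0.0165), both lower in K123R. On the slide that holds an array of each, these 4 differences were 1.31, 0.61, −0.71 and −0.62 in the same order. In the double mutant against ubp8, 6 members passed, 4 higher and 2 lower, beside 6.57% of 6243 genes. YGL262W was higher in the double mutant by 1.51 ± 0.11, with the same limit, and YFR057W, ERR2 and DDI2 were higher too, while BDS1 and ARR2 were lower. Leaving out an array of the double mutant left 1 member between K123R and ubp8, beside 0.817% of all genes. Leaving out an array of K123R left 2 between the double mutant and ubp8, beside 0.785% of all genes. With the slide as a block 35 and 12 passed, beside 27.3% and 17.3% of all genes.

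By brightness, the dimmest members held 11 of the 19 increases in K123R against wild type and 10 of the 20 in the double mutant. Of the 44 dimmest members, 11 rose and 0 fell in K123R against wild type, 10 rose and 0 fell in the double mutant, and 9 rose and 2 fell of 42 tested against the htb2 deletion strain. Of the 44 brightest, 3 rose and 4 fell in K123R, 4 rose and 2 fell in the double mutant and 1 rose and 5 fell of 40 against the htb2 deletion strain. Between them, the 43 members of middle brightness had 5 increases and 5 decreases in K123R, 6 and 2 in the double mutant and 4 and 6 against the htb2 deletion strain. Among all genes as dim as the 44 dimmest members, 12.9% rose and 3.09% fell in K123R, 11.8% and 3.43% in the double mutant, and 13.6% and 8.89% against the htb2 deletion strain. Among all genes as bright as the 44 brightest members, 11.1% rose and 11.6% fell in K123R. These shares were 9.77% and 11.3% in the double mutant and 15.7% and 17.4% against the htb2 deletion strain. The brightest members were below each of these shares. In the middle range, members rose more often than all genes in K123R and the double mutant. Against the htb2 deletion strain they rose less often. They fell more often than all genes only in K123R. The 4 members with a log2 ratio above 1 in K123R were among the 44 dimmest. These groups were split by a signal measured on the same arrays, and the part of brightness in the calls was not tested.

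**Figure D5:**
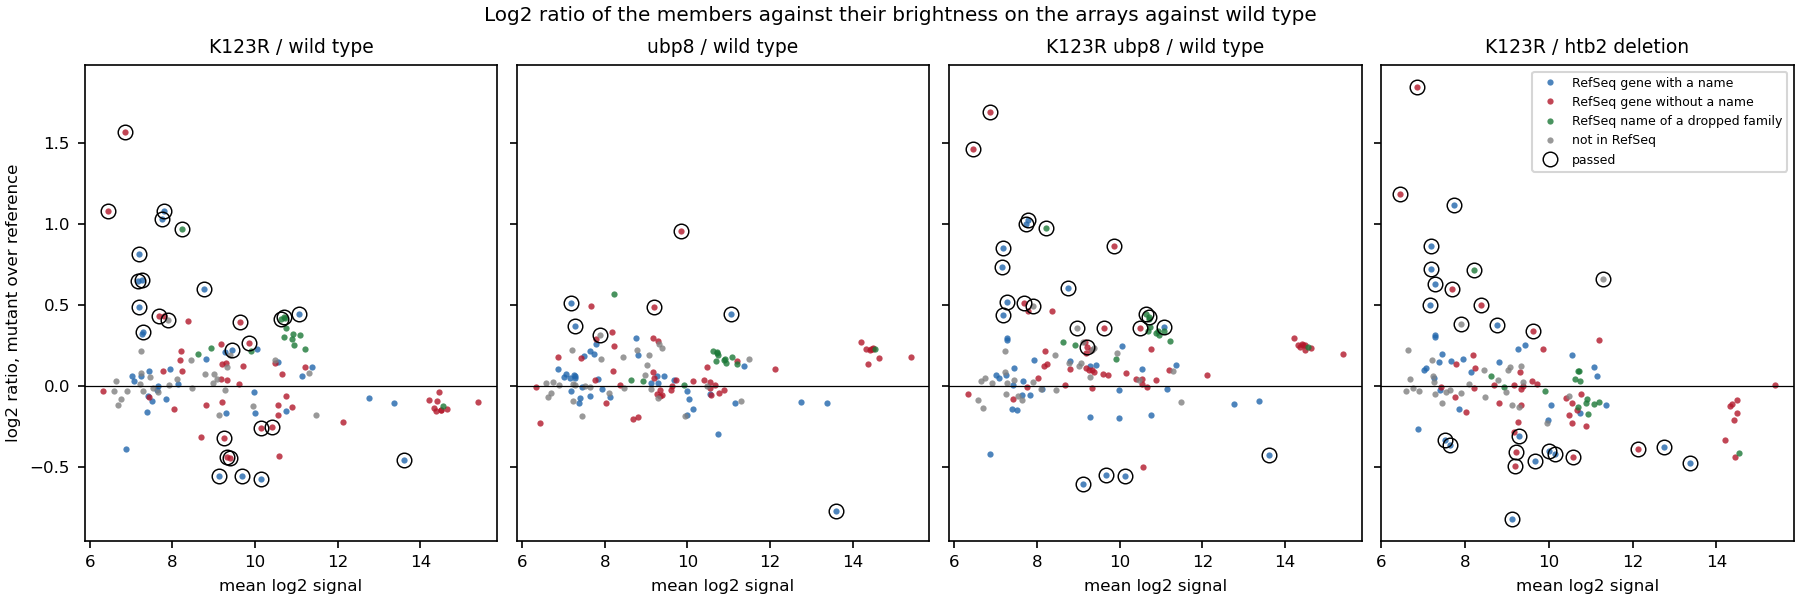
Log2 ratio, mutant over reference (vertical axis), of each member against its mean log2 signal over both colours on the arrays against wild type (horizontal axis) in the 4 direct comparisons; colours mark the annotation group and open circles the members that passed. The ratios above 1 in K123R against wild type belong to members with a signal under 8, and the 10 members above 14 lie between −0.15 and −0.04 in that panel.

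By rank, the increases in K123R against wild type fell on 1 of 23 members at rank 1, 4 of 25 at rank 2, 4 of 28 at rank 3, 5 of 28 at rank 4 and 5 of 27 at rank 5, beside 11.0% of all genes. Decreases there numbered 0, 3, 2, 0 and 4, beside 10.1%. In the double mutant 2, 4, 4, 5 and 5 rose and 0, 0, 1, 0 and 3 fell in the same order, and against the htb2 deletion strain 2, 1, 3, 3 and 5 rose and 1, 1, 4, 1 and 6 fell. In ubp8 0, 1, 1, 1 and 3 rose and 1, at rank 5, fell. With so few at each rank, no trend is read from these counts. Among the ORFs ranked 6 to 10, 19 of 142 rose and 17 fell in K123R, 20 rose and 16 fell in the double mutant, and 22 rose and 11 fell of 135 against the htb2 deletion strain. Their median in the double mutant was −0.01, below the 0.12 of the members. Whether the members differ from them was not tested.

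By arm, increases in K123R against wild type lay on 14 of 32 arms and decreases on 8, and 12 arms had neither. Arm PL held 3 neighbours that rose, PAU22, ERR2 and HSP32, next to FEX2, which fell. Arms OR (PAU21 and ERR1), MR (ERR3 and SNO4) and JL (VTH2 and IMA4) held 2 each, and arm PR held 2 that fell, YPR203W and ARR2. PAU, ERR and HSP31 relatives lie side by side on arms PL, OR and MR, so that neighbours on these arms are also relatives of neighbours on another. HSP33 on arm OR and PAU19 on arm MR (0.42 ± 0.12, adjusted p = 0.0681) did not pass. Arms PL, OR and MR held at least 2 increases in the double mutant too. On arms FR and GL, in contrast, YFR057W and YGL262W were the only members that rose in K123R: YFR056C, IRC7 and YFR054C on FR and PAU11, YGL260W and YPS5 on GL did not pass, and HXK1 on FR fell.

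Of 22 genes known for silencing at chromosome ends or for placing the ubiquitin, 2 rose and 1 fell in K123R against wild type, 4 rose and 1 fell in the double mutant, 3 of 19 tested rose against the htb2 deletion strain and none passed in ubp8, where 0 also had an unadjusted p under 0.05 by limma. These shares, 9.09% up and 4.55% down in K123R, 18.2% and 4.55% in the double mutant and 15.8% up against the htb2 deletion strain, stand beside 11.0% and 10.1%, 9.86% and 10.02%, and 14.7% of all genes, and no result about the list is read from them. Of single genes, RAD6, the ubiquitin-conjugating enzyme gene, rose by 0.38 ± 0.05 in K123R and 0.37 ± 0.05 in the double mutant. SAS4 of a histone acetyltransferase complex rose by 0.30 ± 0.06, 0.25 ± 0.06 and 0.32 ± 0.09 in K123R, in the double mutant and against the htb2 deletion strain. REB1, a DNA-binding factor gene, fell by 0.22 ± 0.05 in K123R and by 0.19 ± 0.05 in the double mutant. SIR2 rose by 0.33 ± 0.06 and BRE1 by 0.26 ± 0.06 in the double mutant, and RIF1 by 0.33 ± 0.08 and the co-repressor gene TUP1 by 0.69 ± 0.10 against the htb2 deletion strain.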

How the data were processed

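Yeast RNA of a mutant and a reference strain was hybridised together on 9 2-colour Agilent arrays. The deposited scanner files hold the intensity of each spot, extracted per the file headers with Feature Extraction A.7.5.1 (arrays with wild type) or 8.5.1.1 (arrays with the htb2 deletion strain). The deposited series values, on a log10 scale, equal ratios of the dye-normalised signals in the files and served as an alternative. In R 4.3.3 with limma 3.58.1, mean signals were corrected with normexp (offset 50) and normalised by loess within arrays. Outlier spots were left out and a gene's spots averaged as log2. Genes well above background in either colour on at least 3 of 6 or 2 of 3 arrays were tested. The 6 arrays against wild type were fitted together with a mean per mutant (3 residual degrees of freedom). The 3 against the htb2 deletion strain had a dye term (1 residual degree of freedom); 547 genes lacking an array, 8 of them members, were fitted by the mean. P-values were adjusted by Benjamini-Hochberg over all genes tested. They measure the spread between these few arrays, whose number limits the precision. In the 6-array fit the arrays were treated as independent. Their deviations from the pair means correlated at 0.86 to 0.89 between arrays of the same number, which also share the dye orientation.

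Members, lists and tests were chosen with earlier results of these data known. By rule, the text names from each comparison up to 15 highest and 10 lowest passing members of 1 sign on every array, arms with at least 2 passing, the 5 brightest and dimmest, leading members of each contrast, and passing genes of the silencing list; it gives part of them. The bright group above 14 and the 15 members in the contrast of the double mutant with K123R were singled out after their values were seen. Of the 131 members, 102 matched a RefSeq locus tag. The fits were tested on simulated data; for the 3-array fit the simulated noise was changed after the first version, which counted dye effects as noise, recovered no changed gene. No probe or genome sequence was used. The label of 1 arm is not reported here.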

Additional observations from a re-analysis of the deposited data

Results flagged for a closer look

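YER188W, ranked 3 on arm ER, went opposite ways in K123R against the 2 reference strains on every array. It read 0.26 and 0.02 against wild type and −0.44, −0.29 and −0.97 against the htb2 deletion strain, where it passed (−0.50 ± 0.13, adjusted p = 0.0336). The difference was 0.64 on the log2 scale and was not tested. Of 118 members with a value on all 5 arrays, 5 had such opposite signs, and YER188W was the 1 of these that passed in either comparison. The groups of 2 or 3 arrays are too small to look for a single array that stands apart.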

How the results depend on the processing

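The medians of the members and their brightness stayed within the spread between arrays under the alternatives tried, except in the double mutant. There median centring without loess moved the median from 0.12 to 0.19. That spread was 0.12 for K123R against wild type, and signs were not all kept. The median there was 0.04 with both arrays, −0.04 without array 2 and 0.14 without array 1. Against the htb2 deletion strain it was −0.01, and 0.02 without the dye term. Where a mutant has 2 arrays, leaving out 1 moves the median by less than their spread almost by construction. Those refits therefore do not test the medians. Of the 86 calls of single members, none changed sign; 685 of 713 refits under other settings kept the call and 28 lost it, and leaving out an array kept 224 of 435. Among the calls lost under another setting were MCH2, MAN2, YAR069C, YER188W and IMA4 in ubp8, ERR3 and HXK1 in K123R and in the double mutant, and MAL32, VTH2, YCR102C and YIR043C in K123R. The deposited values gave 4 members in ubp8 in place of 7, and Agilent processed signals 6 in K123R against ubp8 in place of 10. The 3 outermost ORFs of each arm, which are fewer, gave 14 in K123R, 2 in ubp8, 11 in the double mutant and 12 against the htb2 deletion strain.

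Leaving out an array of another mutant gave 19 to 22 members in K123R, 0 to 1 in ubp8 and 21 to 23 in the double mutant. The shares of all genes beside them were 13.2% to 14.2%, 0 to 0.128% and 11.9% to 13.2%. Against the htb2 deletion strain, leaving out 1 array gave 9 to 36 members, beside 8.58% to 36.6% of all genes. For the contrasts with ubp8 these counts are given above. A replicate block, by array number, which here is also the dye orientation, gave 85 members in K123R, 68 in ubp8 and 92 in the double mutant, beside 66.2%, 49.9% and 65.4% of all genes. With this block 6 members passed in the double mutant against K123R (YIR043C, YLR463C, YER189W, YEL075C, YBL109W and YPR202W, all higher, of 14 genes in all). In K123R against ubp8 76 passed and in the double mutant against ubp8 63, beside 56.6% and 55.1% of all genes. Deviations of same-numbered arrays from the pair means correlated at 0.86 to 0.89 across genes, so these deviations are not independent. With 2 numbers, which are also the dye orientations, no pairing of the samples could be shown. The slide block, added after the data were seen, gave 70, 26 and 55 members in the 3 comparisons with wild type, and 35 and 12 in K123R and in the double mutant against ubp8. Not run were a scan-date block, since the files allow no fit with one, and leaving out members with near-identical proteins, since no proteins were used here.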
